A study of Mus musculus with 9 samples.

Results

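The CXC chemokine ligands are small secreted proteins that attract leukocytes, and 9 of their genes were followed here: Cxcl1, Cxcl2, Cxcl9, Cxcl10, Cxcl12, Cxcl13, Cxcl14, Cxcl16 and Pf4. They were chosen by gene symbol among the 49510 rows of the deposited table of read counts, where each has 1 row. The libraries were made from regulatory T cells (Tregs, the suppressive CD4 T cells defined by the transcription factor Foxp3) of Foxp3-GFP mice, in which a green fluorescent protein reports Foxp3. All mice were 8 weeks old and had myocardial ischemia/reperfusion injury (interrupted and then restored blood flow to the heart muscle) 3 days earlier. The 3 groups differ in the organ the cells came from: spleen, the heart-draining mediastinal lymph node (MLN) and heart, with 3 libraries each. No uninjured group is among the samples, so effects of the organ and of the heart injury cannot be told apart. The labels do not say whether libraries came from separate or pooled animals, so each p-value reflects the spread among these samples alone, and that spread may be technical.

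A CXC ligand binds a seven-helix receptor on the leukocyte it guides. Cxcl1 and Cxcl2 act on Cxcr2 and draw neutrophils, Cxcl9 and Cxcl10 are interferon-inducible ligands of Cxcr3, Cxcl12 retains cells through Cxcr4, Cxcl13 brings Cxcr5-bearing cells into B cell follicles, and Cxcl16 is a membrane-bound ligand of Cxcr6. Pf4, also named Cxcl4, is best known as a platelet granule protein, and Cxcl14 is made by many epithelial and stromal cells. In an infarcted heart such ligands come mainly from resident stromal and vascular cells and from infiltrating myeloid cells, while a Treg is better known for the receptors.

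The promoter windows of 4 ligands are shown because Cxcl1 and Cxcl2 neighbour each other and were both far higher in the heart than in either lymphoid organ, Cxcl10 was present in all 9 libraries, and Cxcl14 was counted in heart libraries only. Each window runs from 250 bases before to 50 bases after the RefSeq start of the gene (GRCm38.p6) and reads 5′ to 3′ on the gene's own strand. Capitals mark matches, on either strand, to the NF-kB motif GGGNNNNNCC or to the interferon response motif GAAANNGAAA. Adjacent capitals hold overlapping matches.
Cxcl1 (chr5:90890995-90891294, + strand): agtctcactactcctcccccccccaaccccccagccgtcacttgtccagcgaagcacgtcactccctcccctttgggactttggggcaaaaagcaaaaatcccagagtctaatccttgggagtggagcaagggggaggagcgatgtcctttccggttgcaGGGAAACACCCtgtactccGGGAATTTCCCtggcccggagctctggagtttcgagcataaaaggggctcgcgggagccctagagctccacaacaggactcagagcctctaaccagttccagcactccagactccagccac
Cxcl2 (chr5:90903649-90903948, + strand): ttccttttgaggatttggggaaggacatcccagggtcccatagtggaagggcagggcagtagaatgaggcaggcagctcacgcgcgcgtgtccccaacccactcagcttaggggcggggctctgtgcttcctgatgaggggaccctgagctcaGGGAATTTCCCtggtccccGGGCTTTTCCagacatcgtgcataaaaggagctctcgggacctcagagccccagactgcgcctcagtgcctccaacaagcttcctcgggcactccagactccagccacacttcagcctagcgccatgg
Cxcl10 (chr5:92348840-92349139, - strand): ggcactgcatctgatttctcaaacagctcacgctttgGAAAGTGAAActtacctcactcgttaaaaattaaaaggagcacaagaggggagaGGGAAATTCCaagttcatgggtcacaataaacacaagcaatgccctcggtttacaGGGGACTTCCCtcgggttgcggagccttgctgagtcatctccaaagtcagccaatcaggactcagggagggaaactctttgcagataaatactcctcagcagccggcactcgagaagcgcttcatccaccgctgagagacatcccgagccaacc
Cxcl14 (chr13:56296502-56296801, - strand): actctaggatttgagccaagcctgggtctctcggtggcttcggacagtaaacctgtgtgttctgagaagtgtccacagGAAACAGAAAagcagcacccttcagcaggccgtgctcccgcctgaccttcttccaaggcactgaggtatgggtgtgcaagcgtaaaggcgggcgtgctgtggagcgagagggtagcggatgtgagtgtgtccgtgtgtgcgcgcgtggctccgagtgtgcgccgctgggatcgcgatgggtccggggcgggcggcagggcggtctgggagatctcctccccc

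The Cxcl1 and Cxcl2 windows both hold the letters GGGAATTTCC, which begin 71 bases before the start in Cxcl1 and 97 bases before it in Cxcl2. That exact string, picked after the windows were read, occurs on either strand in 29 of 32851 RefSeq windows of the same length (0.0883%). The looser NF-kB motif is far less selective: it is in 6 of the 8 ligands with a window and in 50.8% of all windows. The interferon response motif is in 2 of those 8, Cxcl10 (beginning 213 bases before the start) and Cxcl14 (172 bases before), and in 3.44% of all windows. Pf4 is the 1 ligand of the 8 with neither motif. A match describes letters only, and no binding was measured.

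The ligand genes are clustered. On chromosome 5 (mm10) lie 6 of the 9, in the order Pf4 (90772435 to 90773383), Cxcl1 (90891241 to 90893115), Cxcl2 (90903871 to 90905938), Cxcl9 (92321347 to 92328079), Cxcl10 (92346638 to 92348889) and Cxcl13 (95956951 to 95961068). Cxcl12 is on chromosome 6 (117168535 to 117181367), Cxcl16 on chromosome 11 (70453983 to 70459984) and Cxcl14 on chromosome 13 (56288643 to 56296551). All are annotated as protein coding. Exons of Cxcl16 share 552 bases with the opposite-strand gene Zmynd15 and exons of Cxcl10 share 133 bases with Art3. The strand option of the counting is not given, so reads of these overlaps could not be assigned with certainty. Zmynd15 had 42, 72 and 356 counts in the heart libraries, against 8913 to 11605 for Cxcl16. In the MLN libraries Zmynd15 had 2815, 1643 and 847 counts against 1590, 3604 and 178 for Cxcl16, so the MLN level of Cxcl16 is uncertain, and in the spleen it had none. Art3 had 5307 to 8779 counts in the heart against 15939 to 29131 for Cxcl10. Protein-coding transcripts of Cxcl2 and its relative Cxcl3 share a stretch of 110 identical bases, so part of their reads may be exchanged. The other ligand pairs share at most 23.

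Each library held 156194012 to 267520538 counts. A gene without a count could still have up to 3 counts, or 0.0104 to 0.0193 CPM (CPM, counts per 1e6 of the scaled library total). In earlier work on these files spleen 3, MLN 3 and heart 2 stood apart from the other libraries of their organ. The labelled cell type was checked by its markers. A list of 10 Treg and T cell markers took 0.187 to 0.274% of heart, 0.498 to 0.6% of spleen and 0.506 to 0.67% of MLN counts, and Foxp3 itself had 1563, 9527 and 53 counts in heart 1, 2 and 3. Markers of other cells were also in the heart libraries. A list of 14 macrophage and monocyte genes took 0.692 to 1% of heart counts, against 0.108 to 0.32% in the spleen and 0.0304 to 0.0806% in the MLN. For 10 fibroblast genes the ranges were 0.289 to 1.52%, 0.000257 to 0.00084% and 0.000201 to 0.00372%. For 10 neutrophil genes they were 0.0582 to 0.32%, 0.000526 to 0.0039% and 0 to 0.000156%. In a bulk library fewer cells of a type and less RNA per cell cannot be told apart.

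**Figure D1:**
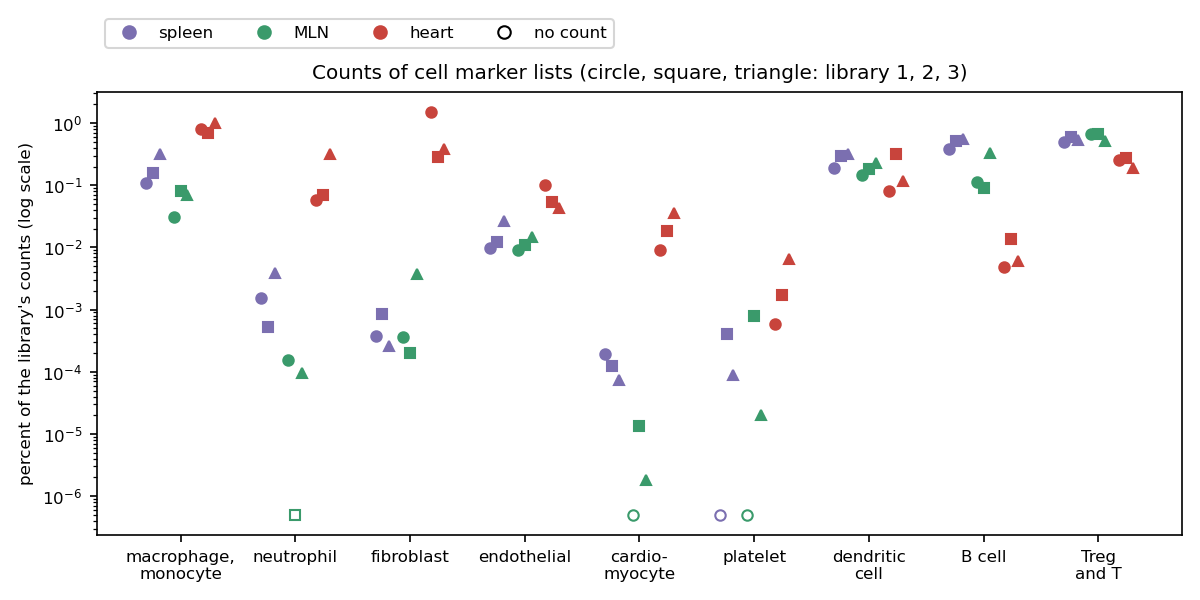
Share of each library's counts (percent, log scale) taken by marker lists of 9 cell classes, in spleen, MLN and heart Treg libraries; each symbol is 1 library and open symbols are lists without a count. Macrophage, neutrophil, fibroblast, endothelial and cardiomyocyte lists lie higher in all heart libraries than in any other, and the B cell and the Treg and T lists lie lower.

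Heart Treg libraries held far more CXC ligand transcript than Treg libraries of either lymphoid organ. The 9 genes together took 0.159, 0.127 and 0.15% of the counts of heart 1, 2 and 3. In spleen 1, 2 and 3 they took 0.00943, 0.0062 and 0.00382%, and in MLN 1, 2 and 3 0.00684, 0.00424 and 0.00171%. Every heart library therefore lay more than an order of magnitude above every lymphoid one. The neutrophil ligand Cxcl2 rose by test in the heart in both comparisons. The stromal ligand Cxcl14 was called in both too, but it was counted in the heart libraries alone and entered the test through them, so its call adds nothing to that presence and absence. No member fell.

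Against the spleen, 2 of 9 ligands were called, both higher in the heart, where 0.789% of the 16609 genes tested were called in either direction and 0.614% as higher and 0.175% as lower in the heart (edgeR quasi-likelihood test, Benjamini-Hochberg adjusted p below 0.05). For 7 of 9 (all but Cxcl9 and Cxcl13) every heart library lay above every spleen library, as it did for 12.4% of all genes tested. Against the MLN the called members were again Cxcl2 and Cxcl14, with a background of 1.38% in either direction, 1.1% higher and 0.283% lower in the heart. The 7 ligands without overlap between the organs were the same in this comparison, against 14.9% of all genes. The comparisons share the heart libraries and are not independent. The median log2 difference over the 9 was 5.83 against the spleen and 7.99 against the MLN, where all genes had medians of 0.025 and 0.122. These medians take a gene without a count in 1 organ at its lower bound. All 9 passed the filter on low counts, and Cxcl12 and Cxcl14 passed it through the heart libraries alone, so they had to differ. Cxcl1 needed the heart libraries too, since outside them only spleen 1 (238 counts) and MLN 2 (66 counts) reached the minimum count. Its separation was thus partly given.

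**Figure D2:**
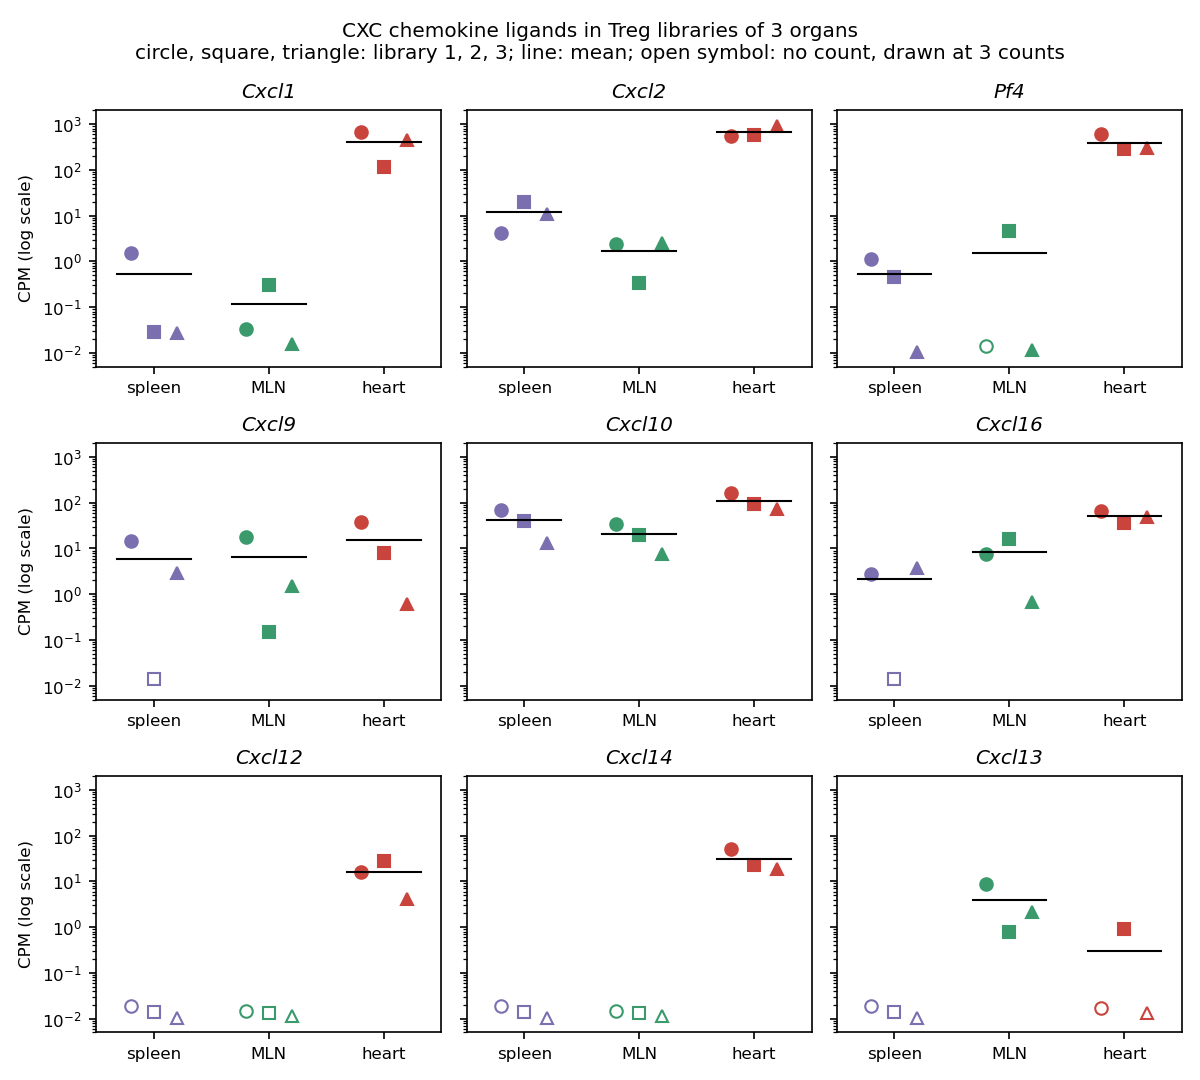
CPM (log scale) of each of the 9 ligands in every library of spleen, MLN and heart; symbols mark the library number, lines the mean of 3, and open symbols libraries without a count, drawn at 3 counts. The heart libraries of Cxcl1, Cxcl2, Pf4, Cxcl10, Cxcl16, Cxcl12 and Cxcl14 sit above all spleen and MLN libraries, and those of Cxcl9 and Cxcl13 do not.

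Cxcl2 (ENSMUSG00000058427), a neutrophil attractant released early by macrophages and mast cells, was at 535, 563 and 907 CPM in heart 1, 2 and 3. It was at 4.24, 20.1 and 11 CPM in spleen 1, 2 and 3 and at 2.35, 0.333 and 2.49 CPM in MLN 1, 2 and 3. The heart libraries were the most alike of any member but Cxcl16, with a coefficient of variation of 31%, and lay clear of the rest. The heart mean of 668 ± 207 CPM (SD, n = 3, as for all means here) rose 56.7-fold over the spleen mean of 11.8 ± 7.95 CPM (log2 5.83, SE 0.94, adjusted p = 0.0398, edgeR). From the MLN, at 1.72 ± 1.2 CPM, it rose 388-fold (log2 8.60, SE 1.06, edgeR adjusted p = 0.0193). The MLN libraries in turn lay below all spleen libraries, by 6.84-fold, but that difference did not pass (edgeR adjusted p = 0.839, 0.0252 by DESeq2). The call against the spleen remained when MLN 2 was left out (0.0367) and ended without any other single library (adjusted p from 0.0507 to 0.122), at log2 differences from 5.43 to 6.48. That against the MLN ended without MLN 1 (0.0707), MLN 3 (0.0589), heart 1 (0.0522) or heart 3 (0.0697), and without the 3 libraries that stood apart it was 0.132 (0.181 for the spleen).

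Cxcl1 (ENSMUSG00000029380), the other main ligand of Cxcr2, which stromal and endothelial cells release on stimulation, was at 657, 114 and 458 CPM in heart 1, 2 and 3. Its counts in the lymphoid libraries were close to none: 238, 6 and 8 in spleen 1, 2 and 3, and 7, 66 and 4 in MLN 1, 2 and 3. Spleen 1 thus carried nearly all of the spleen mean of 0.529 ± 0.867 CPM. Without the heart libraries Cxcl1 would not have passed the filter on low counts, so its separation from the lymphoid libraries was partly given. The heart mean of 410 ± 275 CPM was 775 times that of the spleen (log2 9.61, SE 2.26, edgeR adjusted p = 0.0913) and 3550 times that of the MLN (log2 11.79, SE 2.45, edgeR adjusted p = 0.0589). Neither passed the edgeR test, both passed with DESeq2 (1.99e-08 and 1.97e-12) and limma-voom (0.0313 and 0.021), and without spleen 1 the MLN comparison passed in edgeR too (0.0336). Without spleen 1 the log2 difference from the spleen was 13.81, and without MLN 2 that from the MLN was 14.01. Per exon length, heart 2 held 4.47 times as much Cxcl2 as Cxcl1, heart 3 held 1.79 times and heart 1 held 0.739 times, so the order of these neighbours changed between libraries. With the length of the longest protein-coding transcript, a choice made after the data were seen, the ratios were 2.53, 1.01 and 0.418. Heart 2 had the lowest Cxcl1 and also the lowest share of the fibroblast list (0.289%, against 1.52% in heart 1 and 0.389% in heart 3). Whether stromal RNA had a part in the Cxcl1 level was not tested.

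Pf4 (ENSMUSG00000029373) was at 595, 285 and 305 CPM in heart 1, 2 and 3. Spleen 1, 2 and 3 had 179, 97 and 3 counts and MLN 1, 2 and 3 had 0, 1032 and 3 counts, so the groups did not overlap. The heart mean of 395 ± 174 CPM was 732 times the spleen mean of 0.54 ± 0.574 CPM (log2 9.52, SE 2.97, edgeR adjusted p = 0.172) and 254 times the MLN mean of 1.55 ± 2.68 CPM (log2 7.99, SE 2.79, edgeR adjusted p = 0.206). MLN 2 alone carried the MLN mean, and without it the log2 difference was 15.84 (edgeR adjusted p = 0.08). Limma-voom called it in both comparisons (adjusted p = 0.0189 and 0.00986). A list of 10 platelet markers took 0.000581 to 0.00656% of heart counts, 0 to 0.000409% of spleen counts and 0 to 0.0008% of MLN counts. In the heart 6 of the 10 had counts and 4 had none, and Ppbp, a CXC ligand itself, held the largest part. Itga2b and Gp5 (3 counts in heart 3 alone) also had their highest mean in the heart. Gp1ba, Gp1bb, Gp9 and Treml1 had theirs in the spleen or MLN. Of 4 tested 0 were called, where 0.789% of all genes were called against the spleen and 1.38% against the MLN. Ppbp was the 1 above all lymphoid libraries. Of all genes 12.4% lay so against the spleen and 14.9% against the MLN. The part of the platelet markers in the Pf4 level was not tested. The gene whose profile over the 9 libraries was closest to Pf4 was Folr2, a folate receptor of resident macrophages.

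**Figure D3:**
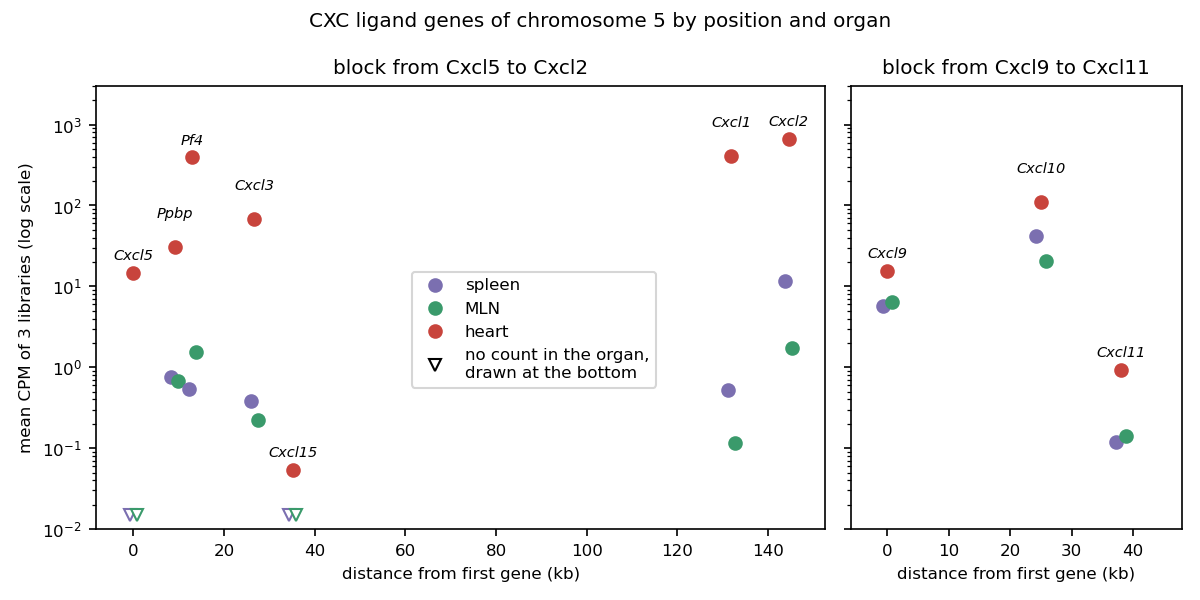
Mean CPM of 3 libraries (log scale) of the CXC ligand genes of chromosome 5 against their distance in kb from the first gene of each block, by organ; open triangles are organs without a count. In the block from Cxcl5 to Cxcl2 all genes but Cxcl15 have heart means between 14.8 and 668 CPM, and in the block from Cxcl9 to Cxcl11 the organs lie closer together.

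Of the other ligand genes in the same block 3 (Cxcl3, Cxcl5 and Ppbp) had heart levels above all lymphoid libraries. Of all genes tested 12.4% lay so against the spleen and 14.9% against the MLN. These 3 passed the filter on low counts only with the heart libraries, so their separation was partly given. The fourth, Cxcl15, had 29 counts in heart 1 and none in any other library. From Cxcl5 to Cxcl2 the block spans about 145 kb and holds 7 ligand genes. Cxcl3, a further ligand of Cxcr2, was at 47.7, 23.8 and 130 CPM in heart 1, 2 and 3 and had a mean of 0.378 ± 0.641 CPM in the spleen and 0.22 ± 0.367 CPM in the MLN (edgeR adjusted p = 0.246 and 0.183). Cxcl5, named here for its position and after its values were seen, was at 38.7, 4.98 and 0.805 CPM in the heart libraries and had no count in any lymphoid library (edgeR adjusted p = 0.123 and 0.11). Ppbp, named for the same reason, was at 7.05, 8.46 and 77.2 CPM, so heart 3 was the highest for Ppbp and Cxcl3 and heart 1 for Cxcl5. Of the 6 CXC ligand genes outside the 9, 4 were tested and 0 were called in any comparison. Of all genes 0.789% were called against the spleen and 1.38% against the MLN. Cxcl17 had no count in any library.

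Cxcl10 (ENSMUSG00000034855), an interferon-inducible ligand of Cxcr3 that guides effector T cells, was the member with the most even presence, with at least 2009 counts in every library. It was at 163, 94.1 and 72.1 CPM in heart 1, 2 and 3, at 70.5, 40.7 and 13.2 CPM in the spleen libraries and at 33.9, 19.6 and 7.76 CPM in the MLN libraries. The lowest heart library lay just above the highest spleen library, 72.1 against 70.5 CPM. The heart mean of 110 ± 47.6 CPM was 2.65 times the spleen mean of 41.5 ± 28.7 CPM (log2 1.41, SE 0.73, edgeR adjusted p = 0.471) and 5.37 times the MLN mean of 20.5 ± 13.1 CPM (log2 2.43, SE 0.75, edgeR adjusted p = 0.151, 0.0124 by DESeq2). Neither difference passed the edgeR test.

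Cxcl9 (ENSMUSG00000029417), its partner ligand of Cxcr3 and strongly dependent on interferon gamma, varied within organs more than between them. It was at 38.7, 7.81 and 0.615 CPM in heart 1, 2 and 3, at 14.5, 0 and 2.89 CPM in spleen 1, 2 and 3 and at 17.6, 0.149 and 1.5 CPM in MLN 1, 2 and 3. All 3 organs overlapped. The differences were log2 1.44 (SE 2.37) against the spleen and 1.29 (SE 2.36) against the MLN, with edgeR adjusted p-values of 0.948 and 0.901, and both turned negative without heart 1 (log2 -0.45 and -0.60). Per exon length Cxcl10 exceeded Cxcl9 in all 8 libraries that had counts of both, from 2.58 times in MLN 1 to 177 times in MLN 2. The joined exons of Cxcl10 fill its introns (2252 bases, against 1353 in its longest protein-coding transcript), which lowers these ratios.

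Cxcl16 (ENSMUSG00000018920), a transmembrane chemokine of macrophages and dendritic cells that is shed by Adam10, was at 65.1, 35.6 and 49.5 CPM in heart 1, 2 and 3. Spleen 1, 2 and 3 were at 2.81, 0 and 3.68 CPM and MLN 1, 2 and 3 at 7.63, 16.2 and 0.688 CPM. It had the lowest variation between heart libraries of all members (29.5%, where the median of 7871 genes with at least 10 CPM in the heart was 51.6%). The heart mean of 50 ± 14.8 CPM was 23.1 times the spleen mean (log2 4.53, SE 1.96, edgeR adjusted p = 0.36) and 6.12 times the MLN mean (log2 2.61, SE 1.8, edgeR adjusted p = 0.598), and neither passed. The difference from the MLN was 3.59 without MLN 2 and 2.07 without MLN 3 on the log2 scale, and that from the spleen was 3.97 without spleen 2 and 5.15 without spleen 3.

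Cxcl14 (ENSMUSG00000021508), a chemokine of stromal and epithelial cells, had 9010, 5623 and 4047 counts in heart 1, 2 and 3, or 50.5, 22.4 and 18.3 CPM. No spleen or MLN library held a single count. Its mean of 30.4 ± 17.5 CPM was at least 2083-fold higher than in the spleen and at least 2311-fold higher than in the MLN, with the empty groups set at 3 counts per library (edgeR adjusted p = 0.0456 and 0.0386). Against the spleen the call remained without MLN 3 (0.0458) and ended without any other single library (0.052 to 0.172). Against the MLN it remained without spleen 1, spleen 2 or spleen 3 and ended without any MLN or heart library (0.0794 to 0.138).

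Cxcl12 (ENSMUSG00000061353), the stromal and perivascular ligand of Cxcr4, showed the same presence and absence: 2915, 7021 and 898 counts in heart 1, 2 and 3, or 16.4, 28.0 and 4.06 CPM, and none in the 6 lymphoid libraries. The mean of 16.2 ± 12 CPM was at least 1106-fold higher than in the spleen and at least 1226-fold higher than in the MLN. Its heart libraries were more scattered than those of Cxcl14, and edgeR's adjusted p-values were 0.0727 and 0.0619, which passed with DESeq2 (5.62e-11 and 2.77e-11) and limma-voom (0.00285 and 0.00249). All 10 markers of the fibroblast list were higher in every heart library than in any lymphoid one. Of all genes tested 12.4% lay so against the spleen and 14.9% against the MLN. Of the 10, 3 were called against the spleen (Dcn, Postn and Fstl1) and 2 against the MLN (Dcn and Fstl1), beside 0.614% and 1.1% of all genes called higher in the heart. Fstl1 had no lymphoid count. Postn, Lum, Pdgfra, Tcf21, Col3a1 and Col1a2 had too few to pass the filter without the heart libraries. The places of these genes, and the calls of Postn and Fstl1, were thus partly given. The list took 1.52, 0.289 and 0.389% of the counts of heart 1, 2 and 3. Cxcl14 was thus highest where this share was highest, and Cxcl12 where it was lowest. The part of fibroblast RNA in the Cxcl12 and Cxcl14 levels was not tested.

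Cxcl13 (ENSMUSG00000023078), which organises B cell follicles, was the 1 ligand with its highest mean in the MLN. It had 1815, 170 and 568 counts in MLN 1, 2 and 3 (8.71, 0.766 and 2.19 CPM), 0, 231 and 0 in heart 1, 2 and 3, and none in the spleen. The MLN mean of 3.89 ± 4.24 CPM was at least 267-fold higher than in the spleen (edgeR adjusted p = 0.839, 1.87e-12 by DESeq2) and 12.7 times that of the heart, which rests on heart 2 (log2 -3.66, SE 2.89, edgeR adjusted p = 0.682). A list of 9 gene models for lymphoid stroma, the cells that make it in lymph nodes, took 0.000847 to 0.00851% of MLN, 0.00377 to 0.00623% of spleen and 0.0173 to 0.0382% of heart counts. In the MLN Madcam1, Pdpn and both models of Ccl19 had no count, while Cr2 had 1184, 1026 and 5835 counts, Fcer2a 582, 662 and 9009 and Bst1 45, 596 and 3804 in MLN 1, 2 and 3, and the Ccl21a models had 137 and 106 in MLN 3 only. Cr2 and Fcer2a are also expressed by B cells. Their part in the Cxcl13 level was not tested.

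**Figure D4:**
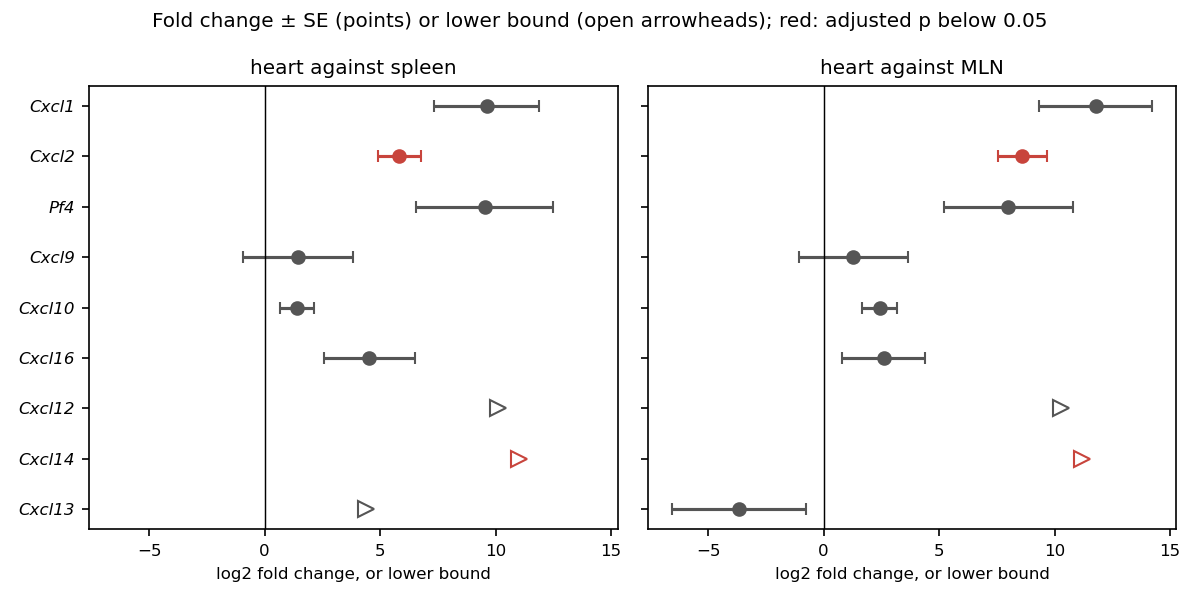
Log2 fold change with its SE (points) of the 9 ligands in the heart against the spleen and against the MLN, or the log2 of the lower bound where the other organ had no count (open arrowheads); red marks adjusted p below 0.05. Cxcl2 and Cxcl14 are red in both panels, and Cxcl13 is the 1 member left of 0, in the panel against the MLN.

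Between the lymphoid organs 0 of 9 ligands and 0 of 16609 genes were called by edgeR (0% of genes; 955 genes, or 5.75%, had an unadjusted p below 0.05, while DESeq2 called 727 genes and limma-voom 3). Cxcl2 and Cxcl13 were the members whose MLN and spleen libraries did not overlap, the former lower and the latter higher in the MLN. Such genes made up 4.56% and 4.52% of those tested. These are also the 2 members with an unadjusted p below 0.05.

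Levels of different members can be compared per kb of exon. In the heart the order of the mean CPM per kb was Pf4 (548 ± 241), Cxcl2 (323 ± 100.2), Cxcl1 (218 ± 146), Cxcl10 (48.8 ± 21.1), Cxcl14 (16.7 ± 9.6), Cxcl16 (16.6 ± 4.88), Cxcl9 (5.21 ± 6.71), Cxcl12 (1.98 ± 1.47) and Cxcl13 (0.267 ± 0.463). Each neighbour in that order overlapped the next over the 3 libraries, apart from Cxcl10 and Cxcl14. The leading 3 made up 46.5, 27.4 and 18.5% of the sum. The joined exons of Cxcl1, Cxcl2 and Cxcl10 fill their introns, so the longest protein-coding transcript was also used as length, chosen after the data were seen. With it Cxcl1 came before Cxcl2 in the heart (429.9 and 359.5 CPM per kb) and Cxcl16 before Cxcl14, and Cxcl10 was at 81.2 CPM per kb. In the spleen Cxcl10 led at 18.4 ± 12.7 CPM per kb, 66.3% of the sum, before Cxcl2 at 5.7 ± 3.84. In the MLN Cxcl10 led at 9.08 ± 5.82, 44.6% of the sum, before Cxcl13 at 3.38 ± 3.69, and their libraries overlapped. The mix thus differed between organs, with Cxcl10 ahead in lymphoid libraries and Pf4, Cxcl2 and Cxcl1 ahead in the heart.

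The genes closest in profile to a member were found by the root mean square difference of log2(CPM + 1) over the 9 libraries, each gene centred on its mean, among 8533 genes with at least 10 CPM in some organ. Closest to Cxcl2 were Clec4e (0.712), a receptor of activated myeloid cells, the cytokine gene Il1a (0.804) and Cd14 (0.864), the lipopolysaccharide coreceptor. Closest to Cxcl1 were Fabp4 (0.446), a fatty acid binding protein of capillary endothelium and fat, Fstl1 (0.54), a secreted glycoprotein of stromal cells, and Emcn (0.569), an endothelial sialomucin. Pf4 lay nearest to Folr2 (0.472) and Pmp22 (0.7). The nearest genes differed between the ligands of Cxcr2, since no gene was named for both.

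Cxcl12 was nearest to the collagen gene Col5a3 (0.153), to C1qtnf9 (0.187) and to the endothelial transcription factor gene Erg (0.251), none of which had a count in a lymphoid library. Cxcl14 was nearest to S100a16 (0.157), the laminin gene Lamb1 (0.16) and Olfml2b (0.17). For Cxcl16 the closest were Pros1 (0.758), which encodes the anticoagulant protein S, the granzyme inhibitor gene Serpinb9 (0.77) and Ifi211 (0.798). Cxcl10 was closest to Crem (0.486), Creb3l1 (0.54) and Cep170 (0.565), and Cxcl9 to Ccnyl1 (0.759), Sirt1 (1.18) and Scpep1 (1.19). Among the members themselves Cxcl12 and Cxcl14 were the closest pair (0.757), before Cxcl1 and Pf4 (0.814), while Cxcl1 and Cxcl2 differed by 1.43. Neither Cxcl12 nor Cxcl14 had a count in a lymphoid library, so their likeness there was given. Per exon length Cxcl14 was 13.8, 3.58 and 20.2 times Cxcl12 in heart 1, 2 and 3, so their heart profiles differed. These root mean square differences describe likeness over 9 libraries that share organs.

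Of 6 CXC receptor genes 5 were tested and 0 were called in any comparison. Of all genes 0.789% were called against the spleen, 1.38% against the MLN and 0% between MLN and spleen. At such shares 0 of 5 says little about the receptors. Cxcr6, the Cxcl16 receptor, had the highest mean CPM over all 9 libraries, though not in the spleen, at 157 ± 48.1 CPM in the heart, 31.6 ± 21.7 CPM in the spleen and 75.7 ± 56.2 CPM in the MLN (edgeR adjusted p = 0.227 and 0.635 for the heart against each). The other receptors are named as partners of the ligands above, outside the rule for named genes. Cxcr3 was at 44.8 ± 37.5 CPM in the heart, 35.9 ± 10.8 CPM in the spleen and 36.5 ± 8.09 CPM in the MLN. Cxcr4 was at 5.57 ± 1.47, 10.4 ± 3.67 and 8.23 ± 1.62 CPM. Cxcr5 was at 1.72, 10.1 and 0 CPM in heart 1, 2 and 3, below all spleen libraries (35.0 to 87.0 CPM) and all MLN libraries (33.1 to 67.9 CPM), with edgeR adjusted p-values of 0.409 and 0.392. Cxcr2, found on neutrophils, had 127, 1685 and 269 counts in the heart libraries and none elsewhere (edgeR adjusted p = 0.133 and 0.118). Of 4 atypical receptors, which take up chemokines without signalling for migration, 2 were tested and 0 were called, with the same limit. Ackr3, which binds Cxcl12, led them at 61.4, 0.583 and 21.7 CPM in heart 1, 2 and 3.

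In a list of 12 inducers of Cxcl1 and Cxcl2 and their NF-kB relays, 0 were called against the spleen, where 0.789% of all genes were, and 1 rose against the MLN, where 1.38% of all genes were called. That gene, Il1b, which encodes the inflammatory cytokine IL-1 beta, was at 1025, 1526 and 2325 CPM in heart 1, 2 and 3. It was at 24.1, 31.1 and 9.1 CPM in the spleen libraries and at 0, 1.39 and 0.383 CPM in the MLN libraries (2748-fold against the MLN, log2 11.42, SE 2.01, edgeR adjusted p = 0.0407; 75.9-fold against the spleen, adjusted p = 0.114). The list's most abundant gene by the mean over all 9 libraries, the NF-kB inhibitor gene Nfkbia, was at 1202 ± 418 CPM in the heart, 709 ± 163 CPM in the spleen and 593 ± 42.7 CPM in the MLN (edgeR adjusted p = 0.377 and 0.182). Macrophage markers were also higher in the heart. Of 14, 2 were called against the spleen (Cd68 and Ccr2) and 6 against the MLN. Of all genes 0.614% and 1.1% were called higher in the heart. In every heart library 11 lay above all spleen libraries and 14 above all MLN libraries, as did 12.4% and 14.9% of all genes tested. In the neutrophil list 0 of 6 tested genes were called against either organ. Above all spleen libraries lay 3 (S100a8, S100a9 and Retnlg) and above all MLN libraries 4 (these and Csf3r), beside the same 12.4% and 14.9% of all genes. Retnlg had no lymphoid count, so its place was given. S100a8 had a heart mean 90.1 times that of the spleen and 3066 times that of the MLN (edgeR adjusted p = 0.175 and 0.0646). Other genes of the list did not share this: Camp had no heart count but 435 and 222 in spleen 1 and 3, and Elane had none anywhere. Mpo had counts in heart 1 only, Ly6g had none in heart 2, and Ltf and Ngp overlapped the spleen. The part of such cells in the Cxcl2 level was not tested.

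Among 14 genes of the interferon gamma axis, which induces Cxcl9 and Cxcl10, 0 were called against the spleen, where 0.789% of all genes were. Against the MLN, where 1.38% of all genes were called, 1 rose, the kinase gene Jak2. It was at 394, 449 and 477 CPM in heart 1, 2 and 3 and at 91.9 ± 23.6 CPM in the MLN (4.79-fold, log2 2.26, SE 0.36, edgeR adjusted p = 0.0333). Jak1, with the highest mean over all 9 libraries, was at 509 ± 83.9, 519 ± 102 and 475 ± 80.5 CPM in heart, spleen and MLN. Of 7 chemokine-processing proteases 6 were tested and 0 called, and Adam10 led at 353 ± 220.4 CPM in the heart against 269 ± 88.1 CPM in the spleen and 373 ± 174 CPM in the MLN. In a list of 6 lymphoid stroma signals, which induce Cxcl13 in lymph nodes, 0 were called in any comparison. At the shares of all genes called, 0 calls among the 6 proteases or the 6 signals say little. Ltb, which encodes lymphotoxin beta, was at 3.67, 47.4 and 51.8 CPM in heart 1, 2 and 3, below all spleen libraries (217 to 224 CPM) and all MLN libraries (159 to 328 CPM), with edgeR adjusted p-values of 0.163 and 0.142.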

How the data were processed

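RNA of sorted Tregs was sequenced from libraries made with a SMARTer ultra-low-input kit, per the labels' protocols. The authors deposited raw read counts per gene, not normalized, for 9 libraries; CASAVA 1.8.2, HISAT2, HTSeq 0.6.0 and the mm10 build come from the submitters' processing notes. The HISAT2 version, strand option and annotation are unknown (not given in the sources used here). All 9 columns were used. Of the 49510 gene identifiers 49412 were found in GENCODE vM21 (GRCm38, the assembly of mm10), which gave coordinates and lengths.

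Tests ran in edgeR 4.0.16 (R 4.3.3): default filter (minimum count 10, minimum total 15; 16609 genes kept), TMM scaling, 1 quasi-likelihood model of 3 organs with 6 residual degrees of freedom, two-sided tests, Benjamini-Hochberg adjustment over all genes and a threshold of 0.05. The SE comes from the F statistic. A fold is a ratio of mean CPM, where the empty group is set at 3 counts per library; this floor covers counting error only, since PCR copies are not independent molecules. The script was tested on simulated data. Alternatives used DESeq2 1.42.0 or limma 3.58.1 (voom), other filters and scaling, other sets of libraries and a replicate block. The median biological coefficient of variation was 102%.

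The members and gene lists were chosen with earlier results of these data known. All members are named; of each pathway list, the called genes and the one with the highest mean over all libraries; and the 3 genes closest in profile to each member with at least 10 CPM in some organ. Some results these rules name are not reported here. Promoter windows of 8 of the 9 members came from RefSeq tables (GRCm38.p6).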

Additional observations from a re-analysis of the deposited data

How the results depend on the processing

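The counts of called ligands and genes depended on the test and on single libraries, while the heart stayed higher in every alternative that gave a value for Cxcl1, Cxcl2, Cxcl10, Cxcl12, Cxcl14, Cxcl16 and Pf4. Against the spleen (2 ligands and 131 genes called) and the MLN (2 and 230), DESeq2 called 5 ligands and 1875 genes, and 5 and 2211. Limma-voom called 5 and 1141, and 5 and 1332. The DESeq2 calls against the spleen include Cxcl13 (DESeq2 adjusted p = 4.67e-10), whose heart counts were 231 in heart 2 alone. Small DESeq2 p-values for groups without counts or nearly so, as for Cxcl1, Cxcl12 and Cxcl13, thus do not show that replicates agreed. Fitting the 2 organs alone gave 292 genes against the spleen, and 4 ligands and 548 genes against the MLN. Without the 3 libraries that stood apart 0 ligands were called, with 3 and 4 genes. The replicate block, with the replicate number as a term, called 0 ligands and 0 genes in both. Same-numbered libraries of different organs correlated in their deviations at -0.12 to 0.105, and differently numbered ones at -0.131 to 0.222. Such values cannot show whether the numbers pair libraries, and the labels do not say. Leaving out 1 library gave 0 to 1 ligands and 0 to 122 genes against the spleen, and 0 to 3 and 0 to 249 against the MLN. Between MLN and spleen (0 and 0), DESeq2 called 2 and 727, limma-voom 0 and 3, and leaving out 1 library 0. The cause was not tested, beyond fewer libraries leaving fewer residual degrees of freedom.

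Some log2 differences of uncalled members turned sign. For Cxcl9 in the heart they ran, on leaving out 1 library, from -0.455 (without heart 1) to 3.437 against the spleen and from -0.604 (without heart 1) to 4.252 against the MLN. In the MLN against the spleen Cxcl9 ran from -2.816 (without MLN 1) to 2.149, with -0.445 and -0.171 without spleen 2 and 3 and -0.146 with the replicate block. Pf4 ran from -6.325 (without MLN 2) to 2.737 and was -1.716 with limma-voom, and Cxcl1 ran from -4.405 to 2.023 (without spleen 1). Cxcl13 in the heart against the spleen has no value without heart 2. DESeq2 size factors moved the median of all genes by at most 0.096. Depth limits zeros only, at 3 counts per library.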
